A study of Homo sapiens with 4 samples.

Results

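The genes of the nuclear pore, of the receptors that carry cargo through it and of the nuclear envelope around it were followed in a table of m6A peaks from BEAS-2B cells, a human bronchial epithelial line. They were chosen by gene symbol, with a fixed pattern of name stems such as NUP, IPO, XPO, KPN, RANBP, LMNB and SYNE. Readthrough names with a hyphen were left out. These genes, and the role groups below, were chosen with earlier results of these data known. The pattern found 44 of the 6763 genes in the table, and these genes held 70 of its 9466 peaks. Cells of one arm were transfected with a plasmid that overexpresses METTL16, an RNA methyltransferase, and cells of the other arm with an empty plasmid. Each arm gave 1 library after immunoprecipitation with an m6A antibody and 1 input library of RNA depleted of ribosomal RNA, so the 4 libraries make 4 groups of 1. With no replicate, no difference below has a test between conditions, and the p-values quoted compare the reads of single libraries. The sequencing depth is unknown, because FPKM values were used without counts.

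The nuclear pore complex is a channel through the nuclear envelope, built from stacked rings of nucleoporins with a disordered mesh of phenylalanine-glycine repeats in the middle. Importins and exportins of the karyopherin family carry proteins and small RNAs through this mesh, and the small GTPase Ran sets the direction by loading exportins and emptying importins inside the nucleus. Most mRNAs leave by another route, with the receptor pair NXF1 and NXT1. The mark m6A is a methyl group on adenosine in RNA, most common near stop codons and in 3'UTRs, and the method enriches RNA fragments that carry it with an antibody, beside an input library. Whether the deposited m6A fold change is corrected for the input level of the gene is not stated in the sources used here, so an m6A value below may include a difference in RNA level. METTL16 is best known for methylating the spliceosomal U6 RNA and hairpins of MAT2A mRNA, while a complex of METTL3 and METTL14 places most m6A in mRNA.

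The m6A values of the pore and transport genes were more often lower than higher in cells with the METTL16 plasmid, much like those of the whole table. Of the 70 peaks, 23 had a positive and 47 a negative log2 fold change in the authors' deposited table, so 67.1% were lower (exact Clopper-Pearson 95% interval 54.9 to 77.9). Over all listed peaks 71.5% were lower. The median of the 70 was -0.30 on the log2 scale (order-statistic 95% interval -0.49 to -0.18), against -0.38 over all listed peaks. A peak counts as 2-fold here when its log2 fold change is 1 or more in either direction, and every peak in the table has a p below 0.05. By this rule 12 peaks of the pore and transport genes were higher, or 17.1% (9.18 to 28), beside 16.5% of all listed peaks, and 20 were lower, or 28.6% (18.4 to 40.6), beside 27.2%. Both shares are near the background.

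Because the median of all listed peaks is below 0, directions were also counted after centring on the median of all listed peaks. The centred values gave 15 higher and 15 lower peaks at 2-fold, and 44.3% of the 70 peaks then lay below 0. At least 1 peak at 2-fold as deposited was found on 25 of the 44 genes, with a higher one on 12, a lower one on 15 and both on 2. Such a peak was found on 50.5% of all listed genes, with a higher one on 20.9%, a lower one on 33.4% and both on 3.81%. An adjusted p was deposited for 65 of the 70 peaks, and 17 of these lay below 0.05, 5 of them higher and 12 lower. That threshold was passed by 28.2% of all listed peaks with an adjusted p. Among the 17 peaks, 3 were also 2-fold higher (on NUP93, TNPO2 and LMNB2) and 4 were also 2-fold lower (on NUP43, RANBP2, TPR and XPO1). Of all listed peaks with an adjusted p, 3.12% passed both thresholds as higher and 5.54% as lower. The 5 peaks without an adjusted p were all at 2-fold or more and lie on NUP88, RANBP2, XPO5 and SYNE3.

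**Figure D1:**
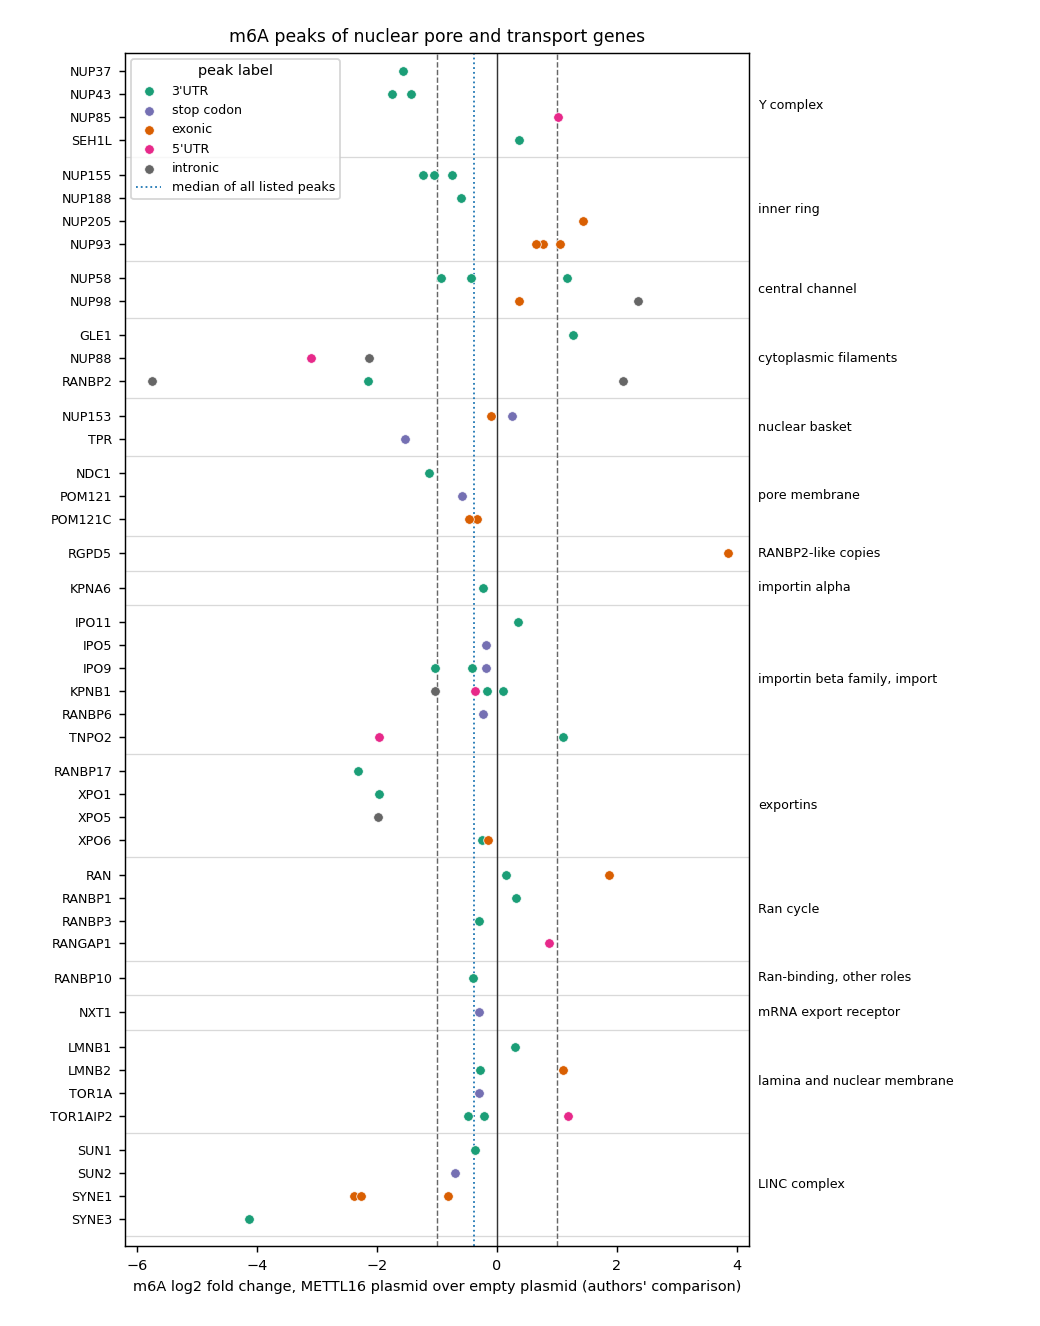
Each point is 1 listed m6A peak, placed by its log2 fold change in the METTL16 plasmid arm over the empty plasmid arm (x axis, authors' comparison, no replicates) beside its gene (y axis, grouped by role), with the colour giving the authors' region label. Dashed lines mark 2-fold and the dotted line marks the median of all listed peaks at -0.38. The 5 exportin peaks lie below 0, 3 of them also below the dotted line, and the values run from -5.75 (RANBP2) to 3.86 (RGPD5).

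In the Y complex, the scaffold that forms the outer rings of the pore, the small subunits NUP37 and NUP43 had lower values and NUP85 a higher one, also after centring. NUP43 had 13.6 FPKM in the METTL16 plasmid input and 14.4 FPKM in the empty plasmid input. The authors' deposited table lists its 3'UTR peaks at a log2 fold change of -1.43 (chromosome 6, 149724315 to 149724689, p = 0.00115, adjusted p = 0.0291) and -1.75 (149725190 to 149725539, p = 0.00984, adjusted p = 0.106). NUP37 had 4.96 FPKM in the METTL16 plasmid input and 5.19 FPKM in the empty plasmid input. Its only peak sits at the 3' end of the gene (chromosome 12, 102073103 to 102074002) and is listed at -1.57 with p = 0.00530 in the authors' deposited table. NUP85, a core subunit of the same complex, had 11.2 FPKM in the METTL16 plasmid input and 11.5 FPKM in the empty plasmid input. For its 5'UTR peak (chromosome 17, 75208294 to 75209823) the authors' deposited table gives 1.01 with p = 0.0119. SEH1L, which also serves in the GATOR2 complex of nutrient sensing, had a 3'UTR peak (chromosome 18, 12985506 to 12985855) that the authors' deposited table lists at 0.37 with p = 0.0489. Among 4 genes the Y complex thus had peaks on both sides of 0.

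The inner ring, which anchors the pore to the membrane and to the central channel, was divided by gene. NUP93, the hub of this ring, had 7.80 FPKM in the METTL16 plasmid input and 7.66 FPKM in the empty plasmid input. All 3 of its exonic peaks were higher, at 0.77 (chromosome 16, 56783706 to 56805569), 1.05 (56823750 to 56830672) and 0.66 (56839079 to 56839636) by the authors' deposited table. The middle one had the smallest p of all 70 peaks in the authors' deposited table, 1.89e-08, and ranked 202 among all listed peaks. NUP205, a large solenoid of the ring, had 21.1 FPKM in the METTL16 plasmid input and 22.6 FPKM in the empty plasmid input. The authors' deposited table puts its exonic peak (chromosome 7, 135597406 to 135597826) at 1.43 with p = 0.0131.

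NUP155, a scaffold protein of the same ring, went the other way, with 13.6 FPKM in the METTL16 plasmid input and 15.0 FPKM in the empty plasmid input. Its 3'UTR peaks are listed at -1.05 (chromosome 5, 37288512 to 37288961), -1.23 (37290237 to 37290361) and -0.75 (37291137 to 37291636) in the authors' deposited table. Their adjusted p were 0.0632, 0.19 and 0.230 in the authors' deposited table, so none was below 0.05. NUP188 had 1 peak at its 3' end (chromosome 9, 129006980 to 129007096), at -0.60 with p = 0.0477 by the authors' deposited table, in bases that the span of SH3GLB2 also covers. In this ring, as deposited and after centring, the exonic peaks were the higher ones and the 3'UTR peaks the lower ones.

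Of the nucleoporins that line the central channel, NUP58 and NUP98 were in the table. NUP98, which carries glycine-leucine-phenylalanine repeats and whose precursor also yields the Y complex protein NUP96, had 16.7 FPKM in the METTL16 plasmid input and 15.8 FPKM in the empty plasmid input. The authors' deposited table lists 2.35 for its intronic peak (chromosome 11, 3707331 to 3707705, p = 0.0311) and 0.38 for an exonic peak (3711684 to 3712683, p = 0.0489). NUP58, a partner of NUP62 in the channel, had 8.87 FPKM in the METTL16 plasmid input and 7.63 FPKM in the empty plasmid input. Its 3 peaks are listed at -0.93 (chromosome 13, 25317803 to 25318396), -0.42 (25331476 to 25332525) and 1.18 (25336126 to 25336300) in the authors' deposited table. All 3 carry the 3'UTR label, yet they lie at 34.2%, 63.1% and 71.8% of the gene's length and were assigned to 3 different transcripts.

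All 6 peaks on the cytoplasmic face of the pore were at 2-fold or more, 2 higher and 4 lower, on 3 genes. The same threshold was reached by 43.7% of all listed peaks, 85.7% of all intronic and 67.7% of all 5'UTR peaks. The 6 include intronic and 5'UTR peaks, and 3 of them have no adjusted p. RANBP2, the giant protein of the cytoplasmic filaments that binds Ran and acts as a SUMO ligase, had 10.04 FPKM in the METTL16 plasmid input and 9.99 FPKM in the empty plasmid input. Its 3'UTR peak (chromosome 2, 108785269 to 108785810) is listed at -2.14 with p = 3.04e-04 and an adjusted p of 0.0113 in the authors' deposited table. By the authors' deposited table, one intronic peak stood at 2.11 (108769619 to 108769868, p = 0.0472) and another at -5.75 (108774996 to 108775120, p = 0.0109), which is the lowest value of all 70. For both intronic peaks the authors' deposited table leaves the adjusted p empty. RGPD5, one of several RANBP2-like genes, had 2.20 FPKM in the METTL16 plasmid input and 2.25 FPKM in the empty plasmid input. Its exonic peak (chromosome 2, 109836030 to 109836529) has the highest value of all 70 in the authors' deposited table, 3.86 with p = 0.0126. This peak lies in bases that the RefSeq span of RANBP2 also covers. Reads of RANBP2 and the RANBP2-like genes can be assigned to more than 1 gene, so the values of RANBP2 and RGPD5 are uncertain.

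NUP88, which builds the export platform of the pore together with NUP214, had 4.21 FPKM in the METTL16 plasmid input and 4.54 FPKM in the empty plasmid input. The authors' deposited table gives -3.09 for a peak labelled 5'UTR (p = 0.0266) and -2.12 for an intronic one (chromosome 17, 5393716 to 5394040, p = 0.0456). The first (chromosome 17, 5419903 to 5420097, minus strand) lies wholly upstream of the RefSeq start of NUP88 at 5419662, with its nearest base 241 bases before it. The 30 bases below, from RefSeq on GRCh38.p14 (chr17:5419883-5419912, minus strand, 5' to 3'), show where this peak meets the promoter window of the gene, with the 10 bases inside the peak in capitals.

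NUP88: GCTAGATTTCcagcagcaccaccattatgt

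GLE1, the cofactor that activates the RNA helicase DDX19 as mRNA leaves the pore, had 4.80 FPKM in the METTL16 plasmid input and 5.38 FPKM in the empty plasmid input. Its peak (chromosome 9, 128525608 to 128528811) is labelled 3'UTR but centred at 59.9% of the gene's length. The authors' deposited table lists it at 1.26 with p = 0.0125.

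In the nuclear basket, which faces the nuclear interior, TPR had a lower m6A value and NUP153 nearly equal ones. TPR, the coiled-coil protein that forms the basket filaments, had 12.01 FPKM in the METTL16 plasmid input and 12.04 FPKM in the empty plasmid input. Its stop codon peak (chromosome 1, 186313677 to 186314026) stands at -1.54 with p = 1.10e-04 and an adjusted p of 0.00536 in the authors' deposited table. It was the only one of 9 stop codon peaks to reach 2-fold, beside 12.2% of all stop codon peaks in the table. It lies in bases that the RefSeq span of PRG4 also covers. NUP153, a docking site for importins, had 37.09 FPKM in the METTL16 plasmid input and 37.04 FPKM in the empty plasmid input. The authors' deposited table gives 0.25 for its stop codon peak (chromosome 6, 17615035 to 17616679, adjusted p = 0.0264) and -0.10 for an exonic one (17625894 to 17637726, adjusted p = 0.208).

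The membrane nucleoporins anchor the complex in the envelope. All 4 of their peaks were lower as deposited, beside 71.5% of all listed peaks, and 3 of them after centring. NDC1 had 14.8 FPKM in the METTL16 plasmid input and 16.1 FPKM in the empty plasmid input. The peak at the end of its 3'UTR (chromosome 1, 53765478 to 53765652) is listed at -1.13 with p = 0.0114 in the authors' deposited table. For POM121 the authors' deposited table gives -0.59 at the stop codon (chromosome 7, 72946152 to 72946876, adjusted p = 0.0226). The authors' deposited table puts exonic peaks of its near-identical copy POM121C at -0.33 (chromosome 7, 75418061 to 75419411) and -0.47 (75420987 to 75423159, adjusted p = 3.01e-04), and reads can be assigned to either copy.

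Among the import receptors, values were small at the stop codons and 3'UTRs of the abundant members, with larger ones on IPO9, KPNB1 and TNPO2. Over 9231 listed peaks, too, absolute log2 fold changes were smaller at higher input levels (Spearman correlation -0.535). KPNB1, importin beta, which carries most classical cargo together with importin alpha, was the most abundant of the 44 genes, with 75.3 FPKM in the METTL16 plasmid input and 78.8 FPKM in the empty plasmid input. The authors' deposited table puts its 3'UTR peaks at 0.10 (chromosome 17, 47682426 to 47682975, p = 0.0104) and -0.16 (47683201 to 47683775, p = 0.0143). By the authors' deposited table its 5'UTR peak stood at -0.37 (47650067 to 47651290, p = 0.0469) and an intronic peak at -1.03 (47679619 to 47679893, p = 0.0183). The ends of its transcript thus differed little, and the 2-fold value came from a short intronic peak.

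IPO9, an importer of histones, had 17.5 FPKM in the METTL16 plasmid input and 18.1 FPKM in the empty plasmid input. From 5' to 3' its 3 peaks are listed at -0.18 at the stop codon (chromosome 1, 201875223 to 201877287), -0.41 in the 3'UTR (201877663 to 201880037) and -1.03 near the transcript end (201883363 to 201883887) in the authors' deposited table. The adjusted p of these peaks was 0.0420, 0.0199 and 0.245 in the authors' deposited table, so the largest difference has the largest adjusted p. TNPO2, a transportin that imports RNA-binding proteins such as hnRNPs, held 2-fold peaks in both directions at opposite ends. It had 16.34 FPKM in the METTL16 plasmid input and 16.30 FPKM in the empty plasmid input. The authors' deposited table gives 1.11 for the 3'UTR peak (chromosome 19, 12701076 to 12701175, adjusted p = 0.00404) and -1.96 for the 5'UTR peak (12721395 to 12722187, adjusted p = 0.114). The remaining import receptors stayed under 2-fold, with IPO5 at -0.18, RANBP6 at -0.23, IPO11 at 0.36 and the importin alpha gene KPNA6 at -0.23 by the authors' deposited table.

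All 5 peaks of the exportins were lower as deposited and 3 after centring, and these 3, on different genes, were at 2-fold or more. Over all listed peaks 27.2% were 2-fold lower, as were 49.8% of those with the intronic label, which the XPO5 peak carries. XPO1, the export receptor for proteins with leucine-rich nuclear export signals and for several RNA classes, had 18.9 FPKM in the METTL16 plasmid input and 18.7 FPKM in the empty plasmid input. Its peak is listed at -1.96 with p = 1.22e-04 and an adjusted p of 0.00575 in the authors' deposited table. This peak is labelled 3'UTR, but it covers 11721 bases in the middle of the gene (chromosome 2, 61502477 to 61514197), at 49.8% of its length. XPO5, which exports microRNA precursors, had 12.9 FPKM in the METTL16 plasmid input and 13.5 FPKM in the empty plasmid input. The authors' deposited table gives -1.98 for its intronic peak (chromosome 6, 43526878 to 43527027, p = 0.0481), without an adjusted p, in bases that the RefSeq span of POLR1C also covers.

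RANBP17, a relative of XPO7, was low, with 1.35 FPKM in the METTL16 plasmid input and 1.60 FPKM in the empty plasmid input. Its 3'UTR peak (chromosome 5, 171298851 to 171299175) is listed at -2.31 with p = 0.00387 in the authors' deposited table. XPO6, the exportin of actin, was abundant, with 48.5 FPKM in the METTL16 plasmid input and 51.8 FPKM in the empty plasmid input. Its 3'UTR peak stood at -0.24 (chromosome 16, 28097976 to 28101190, adjusted p = 0.00691) and its exonic peak at -0.14 (28155691 to 28156463, adjusted p = 0.197) by the authors' deposited table. The most abundant exportin in the table was the one without a large difference. Every listed peak has a p below 0.05, and absolute log2 fold changes fell with input FPKM over 9231 listed peaks (Spearman correlation -0.535). Nothing particular to XPO6 is therefore read from its small values. Since 71.5% of all listed peaks are lower, nothing particular to exportins is read from their 5 lower peaks.

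The genes of the Ran cycle had mostly higher m6A values and lower input levels in the METTL16 plasmid arm. Of 5 peaks, 4 were above 0 as deposited and 5 after centring, while 71.5% of all listed peaks were lower as deposited. An adjusted p below 0.05 was reached by 0 of the 5 in the authors' deposited table. The input of all 4 genes was lower, by at most 1.11-fold. It was also lower for 57.9% of all genes at 1 FPKM or more. RAN, the GTPase itself, had 61.3 FPKM in the METTL16 plasmid input and 67.8 FPKM in the empty plasmid input. A short exonic peak of RAN (chromosome 12, 130874012 to 130874136) stands at 1.87 with p = 0.0113, and the 3'UTR peak (130876037 to 130876511) at 0.16 with p = 0.0118, in the authors' deposited table. RANGAP1, which makes Ran hydrolyse GTP in the cytoplasm, had 24.8 FPKM in the METTL16 plasmid input and 26.7 FPKM in the empty plasmid input, and the authors' deposited table puts its 5'UTR peak at 0.87. RANBP1, which helps RANGAP1 to strip Ran from exiting receptors, had 19.2 FPKM in the METTL16 plasmid input and 20.8 FPKM in the empty plasmid input, and is listed at 0.32 in the authors' deposited table.

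RANBP3, a cofactor of XPO1, had 5.16 FPKM in the METTL16 plasmid input and 5.44 FPKM in the empty plasmid input, and is listed at -0.29 in the authors' deposited table. How the deposited m6A value takes the input into account is not stated, and the relation of the input levels to the m6A values was not tested. For the mRNA export cofactor NXT1 the authors' deposited table gives -0.29, and for RANBP10, a Ran-binding protein, -0.40.

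Of the lamina and its membrane partners, LMNB2 and TOR1AIP2 had a 2-fold higher peak outside the 3'UTR, and the other 5 peaks on 4 genes stayed under 2-fold. Over the table, 16.5% of all listed peaks, 18.5% of exonic peaks and 22.1% of 5'UTR peaks were 2-fold higher. LMNB2, which encodes lamin B2, had 23.4 FPKM in the METTL16 plasmid input and 26.5 FPKM in the empty plasmid input. The authors' deposited table gives 1.10 for its exonic peak (chromosome 19, 2435130 to 2436907, adjusted p = 0.0351) and -0.27 for its 3'UTR peak (2430010 to 2430909, adjusted p = 0.00992). After centring the 3'UTR value is 0.11. LMNB1, the other B-type lamin gene, had 22.1 FPKM in the METTL16 plasmid input and 26.1 FPKM in the empty plasmid input. Its 3'UTR peak (chromosome 5, 126836363 to 126837012) is listed at 0.30 with p = 0.0277 in the authors' deposited table. TOR1A, an ATPase of the nuclear envelope and endoplasmic reticulum, had 13.67 FPKM in the METTL16 plasmid input and 13.63 FPKM in the empty plasmid input. Its stop codon peak (chromosome 9, 129812942 to 129821548) stood at -0.30 with an adjusted p of 4.14e-04 by the authors' deposited table, and at 0.08 after centring.

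TOR1AIP2, which encodes an activator of torsin, had 8.07 FPKM in the METTL16 plasmid input and 8.04 FPKM in the empty plasmid input. The authors' deposited table gives 1.18 for its 5'UTR peak (p = 0.0362), and -0.21 (chromosome 1, 179862267 to 179864041, p = 0.0364) and -0.49 (179842642 to 179844041, p = 0.0107) for peaks labelled 3'UTR. Among the 70 peaks, the 5'UTR peak (chromosome 1, 179875998 to 179877802, minus strand) was the only one to reach into the transcribed bases of its gene's RefSeq start window, which runs from 250 bases before to 50 after the start. It covers 49 of those 50 bases. The 30 bases around the start (chr1:179877789-179877818, RefSeq, GRCh38.p14, minus strand, 5' to 3') are shown because they mark where the peak stops, with the bases inside the peak in capitals.

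TOR1AIP2: gggaccctggacgacaTTCGGGCCGCGGCG

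The letters GGAC, the core of the common m6A motif, were searched in the 50 transcribed bases of this window on both strands, as GGAC and GTCC, and neither was found there. GGAC on the transcribed strand is present in 18.9% of the 35116 RefSeq windows over the same 50 bases, and either form in 33.5%.

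The LINC complex links the nuclear lamina to the cytoskeleton across the envelope. All 6 of its peaks were lower as deposited, beside 71.5% of all listed peaks, and 5 of them after centring. The median of the mean input level over these 6 peaks was 0.763 FPKM, so most of them lie on genes with little RNA. SYNE1, which encodes the giant spectrin-repeat protein nesprin-1, was low, with 0.75 FPKM in the METTL16 plasmid input and 0.77 FPKM in the empty plasmid input. By the authors' deposited table its exonic peaks stood at -2.27 (chromosome 6, 152353667 to 152354705, p = 0.0219), -2.37 (152310399 to 152310892, p = 0.0203) and -0.81 (152326298 to 152331818, p = 2.42e-04). The last, the longest, was the only one of them with an adjusted p below 0.05 in the authors' deposited table, at 0.00970. SYNE3, another nesprin gene, had 0.66 FPKM in the METTL16 plasmid input and 0.87 FPKM in the empty plasmid input. Its 3'UTR peak (chromosome 14, 95415391 to 95415565) is listed by the authors' deposited table at -4.13 with p = 0.00293, without an adjusted p.

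SUN1 and SUN2, the inner membrane partners of nesprins, stayed under 2-fold, at -0.37 and -0.69 by the authors' deposited table. The SUN1 peak (chromosome 7, 895414 to 896436) lies past the RefSeq end of SUN1 by 20480 bases, inside the span of GET4. The SUN2 peak (chromosome 22, 38737864 to 38738163, p = 0.0231) overlaps a GTPBP1 peak on the opposite strand, which is listed at -1.16 in the authors' deposited table. For both genes the assignment of the peak was not tested.

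Several peaks on 1 gene did not always share a direction. Of the 44 genes, 27 had 1 peak and 17 had more, up to the 4 of KPNB1. Among the 17, all peaks were lower on 7 genes, all higher on 3 and mixed on 7, or 41.2% (18.4 to 67.1). Over all genes with several peaks 38.5% were mixed, so the share is near the background. After centring, all peaks were lower on 4 genes, all higher on 6 and mixed on 7. The genes with only higher peaks as deposited were NUP93, NUP98 and RAN.

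Peaks labelled 3'UTR were the largest class, with 34 of 70, or 48.6% (36.4 to 60.8), beside 42.9% of all listed peaks. Exonic peaks came next with 21.4% (12.5 to 32.9), beside 13.7%, then stop codons with 12.9%, beside 14.5%, and introns and 5'UTRs with 8.57% each, beside 7.38% and 5.17%. The start codon label, at 5.45% of all listed peaks, was held by 0 of the 70, and the exact interval reaches 5.13%. The label for exons of non-coding RNA, at 10.7% of all listed peaks, was also held by 0 of the 70, all of which lie on protein-coding genes. Without peaks of that label, the shares over the table were 48.0% for 3'UTRs, 15.3% for exons and 16.2% for stop codons. They were 8.27% for introns, 5.78% for 5'UTRs and 6.1% for start codons. Peaks labelled 3'UTR were lower in 25 of 34 cases as deposited, or 73.5%, beside 73.6% of all 3'UTR peaks, and in 18 after centring. Exonic peaks were higher in 8 of 15 cases as deposited and in 11 after centring. Over all listed exonic peaks, 512 of 1297 were higher as deposited. The median log2 fold change was -0.41 for 3'UTR and 0.38 for exonic peaks of the pore and transport genes in the authors' deposited table, against -0.42 and -0.26 for all listed peaks of these labels. All 6 intronic peaks were at 2-fold or more, beside 85.7% of all intronic peaks. Of the 15 exonic peaks, 3 are on NUP93, 3 on SYNE1 and 2 on POM121C, so the exonic median rests on few genes.

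Of 33 peaks labelled 3'UTR that were set against a RefSeq gene span, 25 were centred past 90% of its length, or 75.8% (57.7 to 88.9), beside 59.9% of all such peaks in the table. RANBP2 was left out of this count because RefSeq gives it a span of 1122820 bases. Among these 25 peaks, 19 were lower as deposited and 14 after centring. Of the 25, 9 were 2-fold lower, on NUP37, NUP43, NUP155, NDC1, IPO9, RANBP17 and SYNE3, and the only 2-fold higher one was on TNPO2. Over all such peaks 26.3% were 2-fold lower and 11.6% 2-fold higher. After centring, 5 of the 25 were 2-fold lower, on NUP37, NUP43, RANBP17 and SYNE3, beside 18.5% of all such peaks. The other 8, which include XPO1, GLE1 and NUP58, lie earlier in the gene or, for SUN1, outside it.

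**Figure D2:**
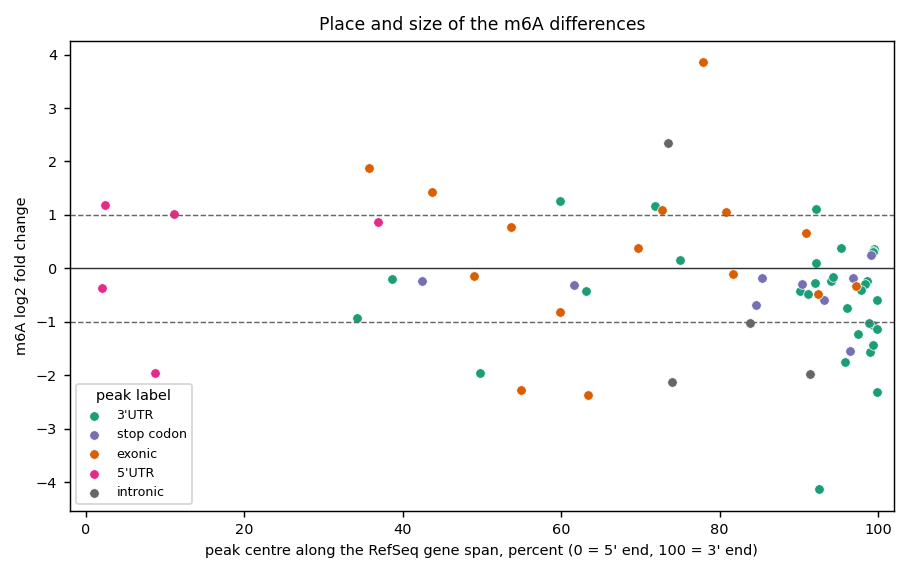
Each point is 1 of 65 peaks, placed by its centre along the RefSeq span of its gene (x axis, percent, from the 5' to the 3' end) and by its m6A log2 fold change in the METTL16 plasmid arm over the empty plasmid arm (y axis), coloured by the authors' region label. The 3 peaks of RANBP2, the SUN1 peak and the upstream NUP88 peak are left out, and of the 25 green 3'UTR points past 90% of the length, 9 lie below the lower dashed 2-fold line and 1 above the upper one as deposited (5 are 2-fold lower after centring).

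The pore and transport genes had higher input levels than the table as a whole, yet their peaks reached 2-fold about as often. The median of the mean input level was 13.4 FPKM over their 70 peaks, beside 5.53 FPKM over all listed peaks. Peaks at 2-fold were 32 of 70, or 45.7% (33.7 to 58.1), beside 43.7% of all listed peaks. At a mean input level of at least 5 FPKM they were 25 of 60, or 41.7% (29.1 to 55.1), beside 25.1% of all listed peaks at that level. The gap was widest between 10 and 20 FPKM, where 16 of 27 peaks were at 2-fold, or 59.3% (38.8 to 77.6), beside 24.8% of all listed peaks. The 16 peaks lie on 11 genes, namely NUP43, NUP155, NUP85, NUP98, RANBP2, TPR, NDC1, IPO9, TNPO2, XPO1 and XPO5. Of these peaks 12 were lower, beside 217 of the 352 listed peaks at 2-fold in this range. They include intronic peaks of RANBP2, NUP98 and XPO5 and 5'UTR peaks of NUP85 and TNPO2. Over the table, 85.7% of intronic and 67.7% of 5'UTR peaks were at 2-fold, and the values of RANBP2 are uncertain.

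Below 10 FPKM the share at 2-fold was 46.2% (26.6 to 66.6) for the pore and transport peaks and 54.1% for all listed peaks. At 20 FPKM or more it was 23.5% (6.81 to 49.9) for the pore and transport peaks and 12.1% for all listed peaks. These 3 ranges were chosen after the levels were seen, peaks on 1 gene share their libraries, and the intervals cover the counting of peaks only. Read coverage of the peaks was not analysed here.

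**Figure D3:**
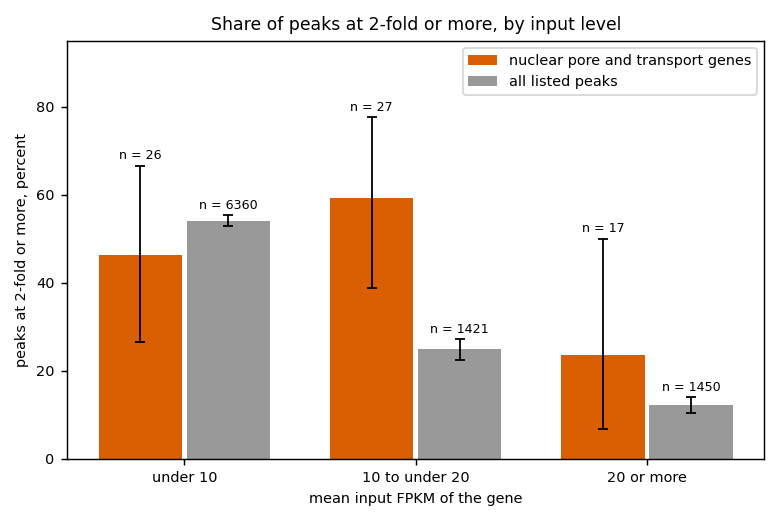
Bars give the share of peaks at 2-fold or more (y axis, percent) for the pore and transport genes (orange) and all listed peaks (grey) in 3 ranges of mean input FPKM (x axis), with exact 95% intervals and the number of peaks. In the range of 10 to under 20 FPKM the orange bar stands at 59.3% and the grey one at 24.8%.

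Input levels of the pore and transport genes were close in the METTL16 plasmid and empty plasmid arms and more often slightly lower with the METTL16 plasmid. Of 42 genes at 1 FPKM or more in either input, 14 were higher and 28 lower, and the median log2 change, with 1 FPKM added to both levels, was -0.05 (-0.09 to -0.0033). Over the 5467 genes of the table at that level, 3164 were lower and the median was -0.02. A 1.5-fold difference on that scale was reached by 0 of the 42 genes, beside 0.951% of all genes at that level. NUP188, a scaffold of the inner ring, had 16.7 FPKM in the METTL16 plasmid input and 19.7 FPKM in the empty plasmid input, the lowest log2 change at -0.23. Next came LMNB1 at -0.23, SUN2 at -0.17, LMNB2 at -0.17 and RAN at -0.14 on the same scale. SUN2 had 4.18 FPKM in the METTL16 plasmid input and 4.85 FPKM in the empty plasmid input.

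The highest log2 change of input was that of NUP58 at 0.19, followed by POM121 at 0.11, NUP98 at 0.07, POM121C at 0.05 and SEH1L at 0.05. POM121 had 10.8 FPKM in the METTL16 plasmid input and 9.93 FPKM in the empty plasmid input. POM121C had 12.05 FPKM in the METTL16 plasmid input and 11.61 FPKM in the empty plasmid input. SEH1L had 4.81 FPKM in the METTL16 plasmid input and 4.62 FPKM in the empty plasmid input. Input was higher for 8 of 18 pore genes, 3 of 12 transport receptors and 0 of 4 Ran cycle genes. Over the table it was higher for 2303 of 5467 genes at 1 FPKM or more. The authors' deposited table gives expression p-values of 0.690 for NUP58, 0.762 for NUP188, 0.770 for LMNB1 and 0.878 for RAN. With 1 library per arm the spread between cultures is not shown, so differences of this size cannot be set against it.

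**Figure D4:**
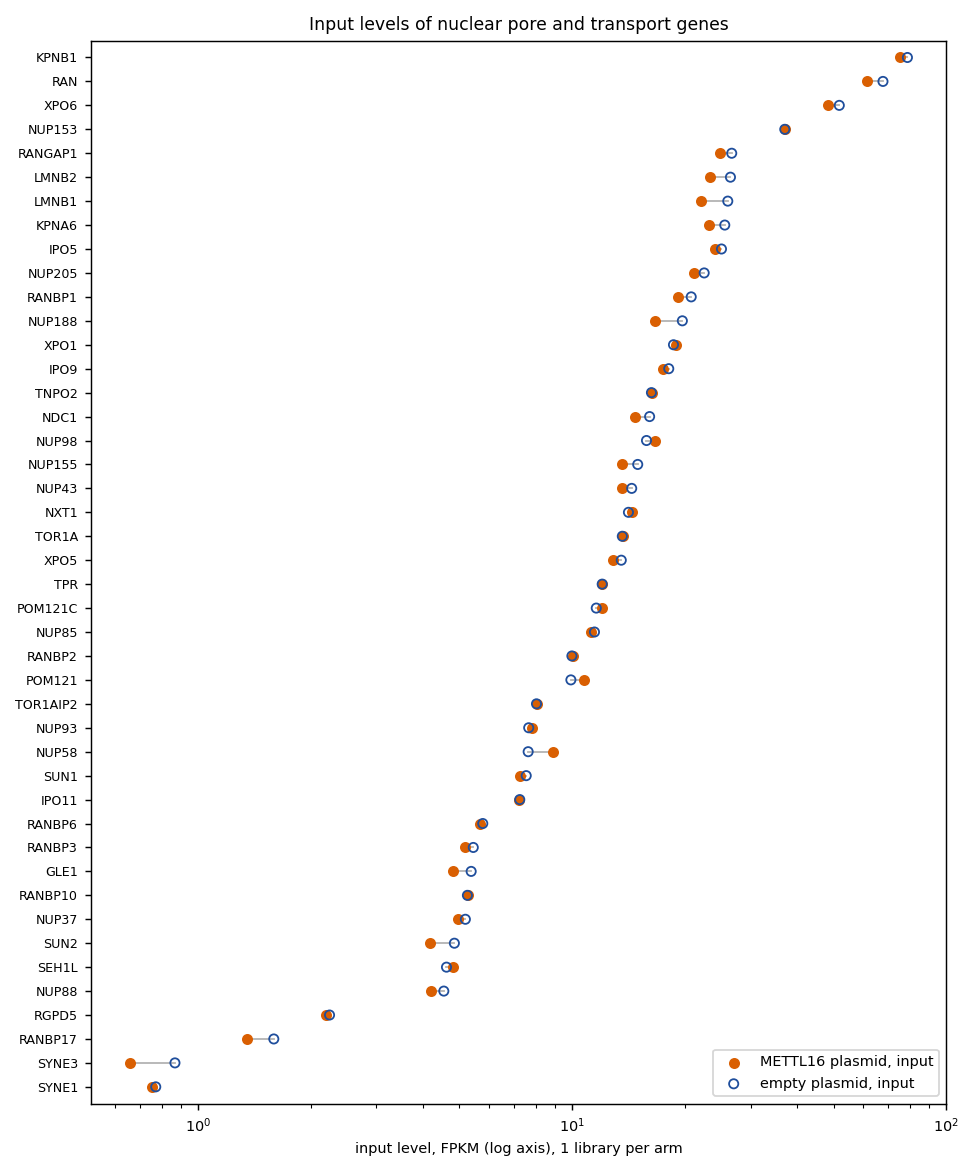
Input levels in FPKM (x axis, log scale) of the 44 genes (y axis, in order of level) in the METTL16 plasmid arm (filled) and the empty plasmid arm (open), with 1 library per arm and no error bars. Levels run from below 1 FPKM for SYNE1 and SYNE3 to 75.3 and 78.8 FPKM for KPNB1, and both points of a gene lie within 1.5-fold of each other for all 44 genes.

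Other genes of the same pathways, taken from 3 lists of names, were set beside these values. Of 13 further pore, Ran and SUMO genes 9 were in the table with 13 peaks, of which 2 were higher and 11 lower as deposited and 5 higher and 8 lower after centring. For RCC1, the exchange factor that loads Ran with GTP, the authors' deposited table gives -0.55 in an intron, and for SEC13 of the Y complex -0.78 in the 5'UTR. DDX19B, a helicase that GLE1 activates, stood at 0.9995 at its start codon, just under the threshold, and at -0.92 in its 3'UTR by the authors' deposited table.

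Of 24 mRNA export genes 7 were in the table with 11 peaks, of which 7 were higher and 4 lower as deposited and 10 higher and 1 lower after centring. At 2-fold, 4 were higher and 1 was lower as deposited, and 4 were higher and 0 lower after centring. Over all listed peaks 16.5% were 2-fold higher and 27.2% 2-fold lower as deposited, and 85.7% of all intronic peaks were at 2-fold. By the authors' deposited table, the 2-fold ones lay on SARNP at 3.33 in an intron and on THOC6 at 2.48 in the 5'UTR. The others were all on ENY2, at 2.07 in an intron, 1.12 at the start codon and -1.25 in the 5'UTR. SARNP is a partner of the TREX complex, ENY2 belongs to the TREX-2 complex at the pore and THOC6 to the THO complex. An adjusted p below 0.05 was reached by 0 of these 5 peaks in the authors' deposited table, which leaves it empty for SARNP and for the highest peak of ENY2.

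Of 12 lamina genes 8 were in the table with 14 peaks, of which 3 were higher and 11 lower as deposited and 7 higher and 7 lower after centring. As deposited, 1 was 2-fold higher and 5 were 2-fold lower, beside 16.5% and 27.2% of all listed peaks. After centring, 2 were 2-fold higher and 4 were 2-fold lower. TMPO, which encodes the lamina-associated polypeptides LAP2, had 19.2 FPKM in the METTL16 plasmid input and 20.3 FPKM in the empty plasmid input. The authors' deposited table lists its 3'UTR peaks at -1.13, -1.47 and -0.63 and an intronic one at 1.43. For LMNA, the A-type lamin gene, the authors' deposited table gives 0.86 with p = 3.63e-33 and -0.32 in the 3'UTR. Together the 3 lists had a median of -0.28 over 38 peaks, close to the -0.30 of the pore and transport genes.

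RefSeq holds 92 protein-coding genes whose symbol matches the pattern, and 44 of them had a line in the table. The other 48, among them NUP62, NUP107, NUP133, NUP160, NUP214, AAAS, CSE1L, KPNA2, NXF1, TNPO1, XPO7 and SYNE2, had no line and were not analysed here, so whole complexes cannot be described. METTL16 itself had no line either, and its level was not checked. Of 9 epithelial markers 4 were in the table, and EPCAM, CDH1 and the keratins KRT5, KRT7 and KRT19 had no line. KRT8 had 54.2 FPKM in the METTL16 plasmid input and 46.1 FPKM in the empty plasmid input. KRT18 had 59.0 FPKM in the METTL16 plasmid input and 59.6 FPKM in the empty plasmid input. CD44 had 98.9 FPKM in the METTL16 plasmid input and 103.3 FPKM in the empty plasmid input, and ITGB4 was below 1 FPKM in both.

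Of 8 markers of other cell types 3 were in the table. COL1A1 had 2.28 FPKM in the METTL16 plasmid input and 2.33 FPKM in the empty plasmid input, and PDGFRB had 1.55 FPKM in the METTL16 plasmid input and 1.51 FPKM in the empty plasmid input. CD68, a lysosomal protein used as a macrophage marker and present in many other cells, had 57.7 FPKM in the METTL16 plasmid input and 41.6 FPKM in the empty plasmid input. The part of such genes in the m6A values was not tested.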

How the data were processed

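The values come from 1 table of the authors' comparison of the METTL16 plasmid arm with the empty plasmid arm. The submitters' processing notes name fastp 0.19.4 and hg38. The program for alignment, that for peak calling, the annotation release and whether strand was used in counting were not given in the sources used here. Per the file headers, the authors deposited for each peak a log2 fold change with its p-value, raw and adjusted, and for each gene an expression log2 fold change, its p-value and the FPKM of both inputs. How the authors scaled the libraries against each other, or corrected peaks for input, is not stated. Peak enrichment per arm was not analysed here.

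Deposited peak starts count from 0: of 8792 peaks placed on a RefSeq gene, 495 begin 1 base before the gene's start and 4 at it. Starts are given 1-based here. Input changes used a pseudocount of 1 FPKM, which understates the change of low genes. Shares have exact Clopper-Pearson and medians order-statistic 95% intervals, which cover counting only. Python 3.11.15, pandas 2.3.3 and scipy 1.17.1 were used, and the steps were tested on simulated data. The genes, role groups and lists were chosen with earlier results of these data known. Full values are given for genes with a 2-fold peak, an adjusted p below 0.05 or several peaks, and for the 5 highest and 5 lowest input changes at 1 FPKM or more. Genes of the 3 pathway lists were picked for naming after their values were seen. The values of 1 gene of these lists are not reported here.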

Additional observations from a re-analysis of the deposited data

How the results depend on the processing

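Alternatives gave 43 values for 7 results, of which 34 stayed within 1.5 times the count, or within the interval of the value, that the report gives. Centring on the median of all listed peaks gave a median log2 fold change of 0.0854 for the pore and transport peaks, against -0.30 as deposited. It put 44.3% of them below 0, so the prevailing direction depends on the value taken as 0. How the libraries were scaled against each other is not stated, and its part in this was not tested. As deposited, 12 of 70 peaks were 2-fold higher and 20 lower. With an adjusted p below 0.05, 3 of 17 peaks were 2-fold higher and 4 lower. With 1 peak per gene, 11 of 44 were 2-fold lower. With peaks of at most 1000 bases, 7 of 45 were 2-fold higher and 18 were 2-fold lower, and the median was -0.59. These counts come from fewer peaks and are not shares. By input level, a choice made after seeing the data, the share at 2-fold was 59.3% between 10 and 20 FPKM and 23.5% at 20 FPKM or more. Apart from the smaller number of peaks left, the cause of these shifts was not tested. Leaving out genes with close copies (RANBP2, RGPD5, POM121 and POM121C) moved no result beyond these limits. Nor did leaving out the lamina, LINC and other Ran-binding genes, or any alternative tried for the input levels. No paired analysis was possible because each group holds 1 library.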
